A study of Mus musculus with 9 samples.

Results

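The data are the chromatin interactions called for CTCF and for RAD21 in untreated mouse embryonic stem cells, 73260 of the 137744 interactions in the series. The members are all rows of the 2 untreated lists, 49630 for CTCF and 23630 for RAD21. Each row is a pair of 1 kb bins, called anchor bins here, with the number of ligated read pairs (contacts) that joined them. An interaction was called common when the same bin pair stood in both lists, and CTCF-only or RAD21-only otherwise.

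The interactions were measured by MNase HiChIP, in which crosslinked chromatin is cut with micrococcal nuclease, nearby DNA ends are ligated, and the ligated DNA is enriched with an antibody. All cells were of the E14 line with the genotype CTCF AID, in which CTCF carries a degron tag that the auxin IAA can engage. Both groups used here had no IAA, and all were grown without serum with LIF and the inhibitors PD0325901 and CHIR99021. How many clones the line stands for and how the tag bears on CTCF before IAA were not analysed here. Each list pools its libraries, 2 for CTCF and 3 for RAD21, and nothing reported here carries an error from replicates. Intervals are 95% intervals that cover counting error only, interactions are not replicates, and every difference is one between 2 pooled data sets.

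CTCF is a zinc finger protein that binds a directional DNA motif. RAD21 is the kleisin subunit of cohesin, the ring complex that extrudes DNA loops and is halted at CTCF sites, most often where the motifs at both ends point toward each other (convergent). Cohesin is also loaded and found at active promoters and enhancers, which carry acetylated lysine 27 of histone H3 (H3K27ac).

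The lists differed in depth. The authors' model held 2839756 contacts for CTCF and 1517698 for RAD21, so contacts were compared as scaled contacts, the contacts per 1000000 model contacts. The median interaction had 14 contacts for CTCF and 13 for RAD21, and all interactions in both lists had a peak flag at both ends. Pairs absent from a list did not pass its q threshold, which is not the same as having no contacts. The cell type label was checked on the untreated H3K27ac list: start sites of 8 of 8 embryonic stem cell markers lay in its anchor bins. Of 9 markers of other lineages 2 did, Eomes and Cdx2, against 31.3% of all protein-coding genes. Start sites of all transcripts were used for the markers and of protein-coding transcripts for the 31.3%.

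To show what the anchors look like, matches to the CTCF motif core are printed for interactions named further on. The core is 14 bases long, was searched on both strands with up to 1 mismatch, and occurred in 2.79% of all 1 kb bins of the genome. Each line gives the motif strand 5′ to 3′ with the core in capitals and 8 flanking bases on each side. Positions are on mm10, and the bases are those of the GRCm38.p6 reference from RefSeq. The first 2 lines are the ends of the common interaction with the most contacts.
Chromosome 15, left anchor, chr15:101988276-101988305, plus strand: cacgttgtCCACCAGGAGGCGCcggaaacc
Chromosome 15, right anchor, chr15:102065812-102065841, minus strand: ctagaaggCCACCAGGGGGCAGagaagggc
The next 4 lines are the ends of 2 common interactions with among the highest RAD21 to CTCF ratios.
Fgfrl1 intron, left anchor, chr5:108692528-108692557, plus strand: tatcacctCCGCCAGGGGGCAGcgtgttct
Partner of Fgfrl1, right anchor, chr5:108727039-108727068, minus strand: tgaagtgaGCACTAGAGGGCGCtgggccac
Ksr2 intron, left anchor, chr5:117614505-117614534, plus strand: ttcagcagCCACCAGAGGGCGCtcagaccc
Nos1 intron, right anchor, chr5:117933037-117933066, minus strand: gacaccaaCCAGCAGGGGGCGCtgcaaggc
The next 2 lines are the ends of the common interaction with the lowest ratio.
Gm20388 intron, left anchor, chr8:121832718-121832747, minus strand: agttgaagACAGCAGAGGGCGCcctgccac
Gm20388 intron, right anchor, chr8:121841520-121841549, minus strand: cgaggaagCCAGGAGAGGGCGCtagatccc
The last 2 lines are CTCF-list ends of RAD21-only interactions whose other end held no core.
Chromosome 2, right anchor, chr2:27765107-27765136, minus strand: aaatatctCCAGCAGGGGGCAGtgctaccc
Chromosome 17, left anchor, chr17:45478626-45478655, plus strand: accggtgtCCACCAGAGGGCAGtgtaaacc
In these examples the cores of the chromosome 15 and chromosome 5 pairs lie on the plus strand at the left and on the minus strand at the right, which is the convergent order. The pair on chromosome 8 has both cores on the same strand, which is the tandem order.

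The RAD21 list lay largely inside the CTCF list. Of the RAD21 interactions, 72.2% (71.6 to 72.8) were also CTCF interactions, and of the CTCF interactions 34.4% (34.0 to 34.8) were also RAD21 interactions, 17063 in all. When each anchor could differ by 1 bin, the shares were 77.9% and 47.1%. With the CTCF list cut to the 23630 interactions of lowest q, 57.5% of each list was in the other, a share that is the same for both by construction. By chromosome, the share of RAD21 interactions in the CTCF list ran from 63.2% on the X to 76.3% on chromosome 10.

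Interactions with many contacts were nearly all in both lists. Of CTCF interactions with under 5 scaled contacts, 14.4% were in the RAD21 list, against 97.0% (95.1 to 98.1) of the 525 with 30 or more. For RAD21 the shares were 55.8% and 98.7% (97.8 to 99.3) of 878. At equal contacts the shares also differed with span. The authors' expected contacts take span into account, and the part of that in this difference was not tested. At 10 to 15 scaled contacts, 51.9% (49.2 to 54.6) of CTCF interactions of 5 to 50 kb were in the RAD21 list, against 91.9% (89.9 to 93.5) of those over 200 kb. For RAD21 interactions the shares in the CTCF list were 63.7% and 94.4%.

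**Figure D1:**
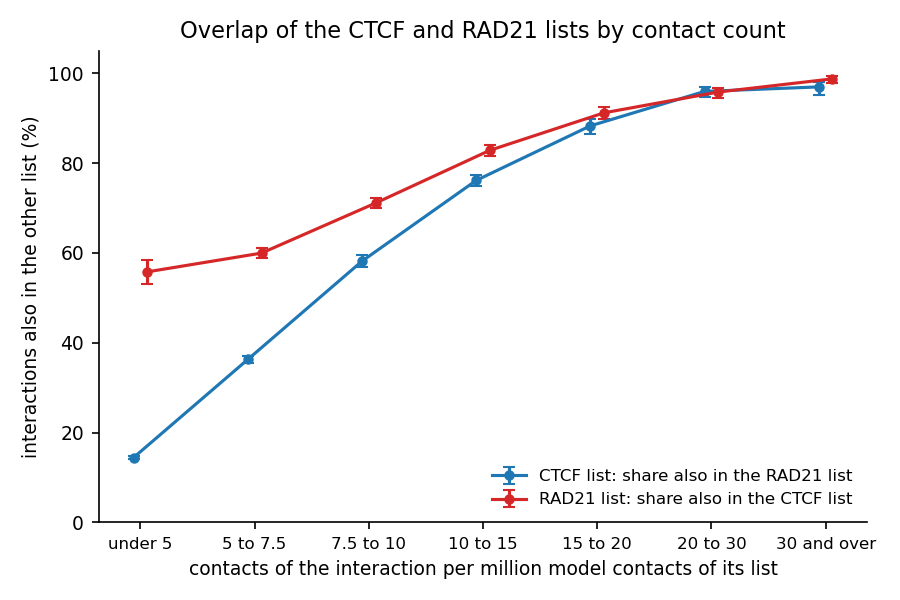
Share of interactions of each list that were also in the other list (vertical axis, percent) by scaled contacts in its own list (horizontal axis). Points are shares and bars 95% Wilson intervals. The CTCF list runs from 14.4% to 97.0% and the RAD21 list from 55.8% to 98.7%.

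RAD21-only interactions were shorter than the rest. Their median span was 86 kb (82 to 88; n = 6567), against 138 kb (135 to 140; n = 17063) for common and 157 kb (154 to 159; n = 32567) for CTCF-only interactions. Spans under 50 kb made up 33.9% of RAD21-only, 15.3% of common and 19.2% of CTCF-only interactions. RAD21-only interactions had the shorter median on 20 of 20 chromosomes, and CTCF-only interactions the longer median than common ones on 19 of 20.

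Most list-specific interactions used an anchor bin that the other list also had. Of RAD21-only interactions, 62.1% had 1 end in a CTCF-list anchor bin, 32.3% had both ends there, and 373 (5.68%) had neither. Their median spans were 81 kb, 108 kb and 33 kb (28 to 42) in that order, so the interactions with no CTCF-list anchor were the shortest. Of CTCF-only interactions, 18070 had 1 end in a RAD21-list anchor bin, 11872 had both and 2625 had neither, with median spans of 139, 196 and 116 kb.

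**Figure D2:**
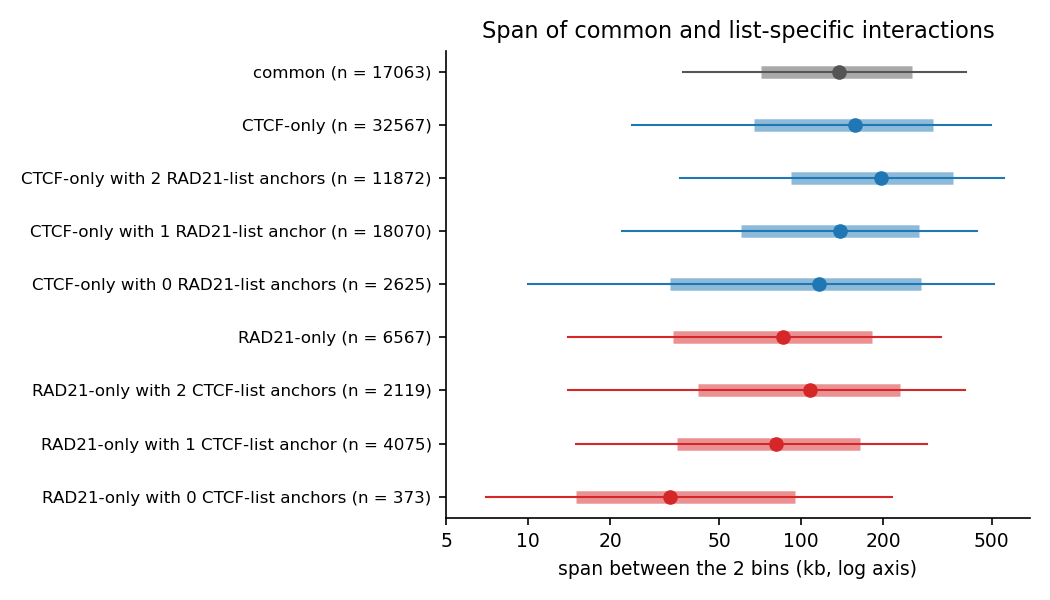
Span between the bins (horizontal axis, kb, log scale) of common and list-specific interactions, the latter also by the number of ends that were anchors of the other list. Dots are medians, thick bars the 25th to 75th and thin lines the 10th to 90th percentiles. RAD21-only interactions with 0 CTCF-list anchors have a median of 33 kb, common interactions 138 kb.

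Anchor bins of the 3 kinds differed in what they held. The lists shared 17849 anchor bins, and 16189 were CTCF-only and 3982 RAD21-only. RAD21-only bins are by definition absent from the CTCF list, so their share with the CTCF motif core is not independent of the sorting. The CTCF motif core was found in 54.8% (54.0 to 55.5) of common, 28.2% (27.5 to 28.9) of CTCF-only and 13.4% (12.4 to 14.5) of RAD21-only anchor bins. In the same bins moved by 10000 bases it was found in 5.19%, 5.30% and 5.58%. Of the matches at CTCF-only anchors 22.5% lay mostly in soft-masked repeats, against 13.1% at common and 16.4% at RAD21-only anchors. For the core, CTCF-only bins differed from common bins by -26.6 points, and by -11.2 points when each anchor could differ by 1 bin.

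Promoters and H3K27ac had another order. Start sites of protein-coding genes lay in 25.6% (24.28 to 26.99) of RAD21-only, 16.4% (15.9 to 17.0) of CTCF-only and 12.5% (12.0 to 13.0) of common anchor bins. The difference of CTCF-only from common bins, 3.93 points, was 8.55 when each anchor could differ by 1 bin. It was 8.45 when start sites within 1 bin of the anchor bin were counted. An anchor of the untreated H3K27ac list overlapped 47.6% (46.1 to 49.2) of RAD21-only, 22.5% (21.9 to 23.2) of CTCF-only and 26.6% (25.9 to 27.2) of common anchor bins. The order for start sites changed at short spans. At 5 to 25 kb a start site was at 1 or more ends of 42.7% (41.0 to 44.3) of CTCF-only, 37.3% (34.6 to 40.1) of RAD21-only and 35.15% (32.004 to 38.44) of common interactions, whereas at 100 to 200 kb the shares were 21.5%, 32.5% and 18.0%. The order of CTCF-only and common interactions for H3K27ac also turned with span, with an H3K27ac anchor at 1 or more ends of 61.6% (59.9 to 63.2) against 73.8% (70.7 to 76.6) at 5 to 25 kb and 26.2% (24.98 to 27.4) against 22.8% (20.9 to 24.8) at 400 kb or more. Over all spans, the orders of RAD21-only against common anchors for start sites, H3K27ac and the core each held on 20 of 20 chromosomes. None of the 3 features was found in 46.1% of CTCF-only, 33.2% of RAD21-only and 27.2% of common anchor bins.

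Coverage, the reads in a bin in the authors' lists, was lower at list-specific anchors, with a median of 737 at CTCF-only against 1905 at common bins in the CTCF list. In the RAD21 list it was 321 at RAD21-only against 571 at common bins. Between RAD21-only and common bins with RAD21 coverage of 250 to 500 the differences stayed large: 28.8% against 12.6% for start sites, 52.5% against 22.8% for H3K27ac and 12.6% against 44.5% for the core. Between CTCF-only and common bins the start site difference changed sign with coverage. It was 20.7% against 22.6% at CTCF coverage of 500 to 1000, and 15.5% against 23.8% under 500. At 1000 to 2000 it was 10.1% against 8.04%, at 2000 to 4000 13.9% against 7.70%, and at 4000 or more 39.3% of 140 against 19.9%. For H3K27ac the shares at CTCF-only and common bins were 18.9% against 31.4% under 500 and 27.1% against 31.5% at 500 to 1000. They were close at 1000 to 2000 (17.6% against 18.2%) and 2000 to 4000 (23.8% against 23.5%), and 39.3% against 47.6% at 4000 or more. The core was lower at CTCF-only bins in each of the 5 coverage classes, with 23.1% against 28.8% at 500 to 1000 and 54.4% against 67.4% at 2000 to 4000.

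**Figure D3:**
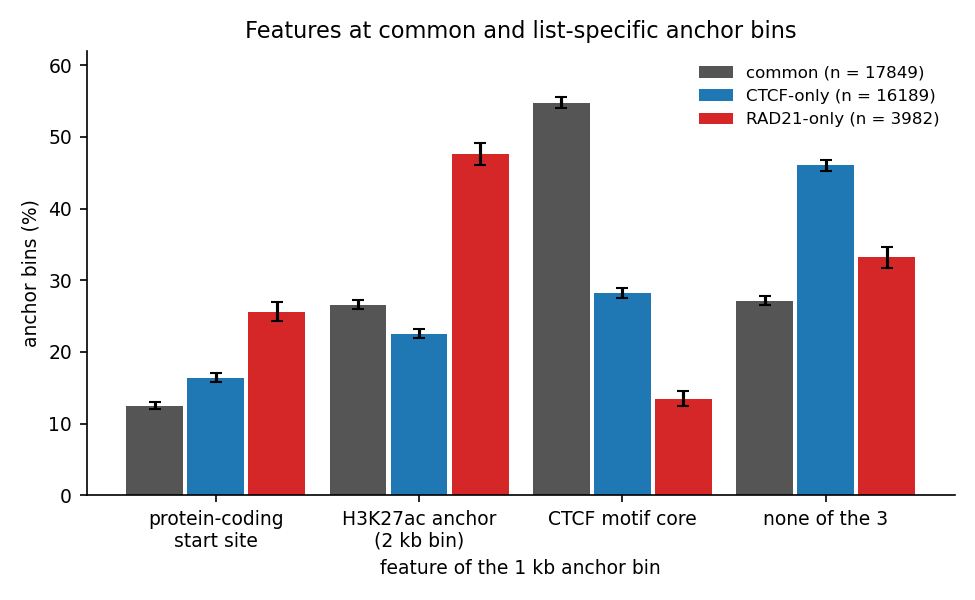
Share of 1 kb anchor bins (vertical axis, percent) with a protein-coding start site, an untreated H3K27ac anchor, a CTCF motif core or none of these, for common, CTCF-only and RAD21-only bins. Bars are shares with 95% Wilson intervals. RAD21-only bins are highest for start sites (25.6%) and H3K27ac (47.6%), common bins for the core (54.8%).

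Anchors can also be read by the coverage of the same bin in both lists. Model contacts count contacts and not reads in a bin, so the sign of a coverage ratio scaled by them depends on the scaling. At shared anchors the median log2 ratio of RAD21 to CTCF coverage, scaled by model contacts, was -0.77. It was -0.39 (-0.44 to -0.35; n = 2229) at bins with a start site and -0.79 (-0.80 to -0.78; n = 15620) at the others, and it was higher at start sites on 20 of 20 chromosomes. The bins with a start site were not alike: without a core the median was -0.13 (n = 1515), and with a core it was -0.89 (-0.96 to -0.82; n = 714), below that of bins without a start site.

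RAD21-only interactions with 1 CTCF-list end differed between their ends in the core and start sites, and hardly in H3K27ac. The ends were told apart by presence in the CTCF list, so their difference in the CTCF motif core is not independent of that sorting. Shares here are over the ends of 4075 interactions, some of which share a bin, so the intervals are too narrow. At the CTCF-list end 70.5% (69.1 to 71.9) held the core, 12.2% a start site and 48.1% (46.6 to 49.7) an H3K27ac anchor, and 11.8% had none of these. At the other end 12.2% held the core, 1020 of 4075 a start site and 47.0% (45.5 to 48.6) an H3K27ac anchor, and 34.5% had none of these. Of the other ends 23.4% lay within 1 bin of some CTCF-list anchor. Where the CTCF-list end had the core on 1 strand, it pointed into the interaction in 92.6% (91.6 to 93.5) of 2769. Where the other end had no core and no CTCF-list anchor within 1 bin, it did so in 91.7% (90.3 to 92.8) of 1848. Where that other end was also a start site or H3K27ac anchor, the share was 89.6% (87.6 to 91.3) of 1032. The core at 1 end thus pointed toward a partner bin in which no core was found. Over all ends with the core on 1 strand, it pointed inward in 90.9% of common, 86.2% of RAD21-only and 78.1% of CTCF-only ends.

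The RAD21-only interactions with no CTCF-list anchor were mostly pairs of H3K27ac anchors. Of the 373, 61.7% (56.6 to 66.5) had H3K27ac anchors at both ends and 10.2% start sites at both ends, and 24.1% had the core at 1 end or more. The same 2 kb bin pair was an untreated H3K27ac interaction in 54.2% (49.1 to 59.1) of them, against 16.1% of all RAD21-only, 8.86% of common and 4.80% of CTCF-only interactions. Spans under 50 kb made up 60.1% of the 373 and 33.9% of all RAD21-only interactions. The part of span in the share of the 373 was not tested. The gap between RAD21-only and common interactions was seen at spans under 50 kb. At 5 to 25 kb the shares were 37.6% (35.0 to 40.4) and 27.8% (24.9 to 30.9), at 25 to 50 kb 26.2% (23.6 to 29.0) and 17.0% (15.3 to 18.8), and at 50 to 100 kb 13.4% and 13.1%.

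Motif orientation also differed between the classes. Among interactions with the core on 1 strand at each end, 81.0% (80.1 to 82.0) of 6411 common ones were convergent, against 55.1% (53.9 to 56.1) of 7851 CTCF-only and 62.3% (59.3 to 65.3) of 972 RAD21-only ones. Both list-specific shares were below the common one on 20 of 20 chromosomes. The remainder was nearly all tandem: 41.1% of CTCF-only, 35.6% of RAD21-only and 18.2% of common pairs. Divergent pairs were rare, at 3.85%, 2.06% and 0.702%.

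The CTCF-only interactions with the most contacts were the least convergent. Their convergent share was 69.7% (67.7 to 71.7) with fewer than 10 contacts, 45.5% (43.4 to 47.6) with 15 to 24, and 22.6% (11.4 to 39.8) of 31 with 50 or more, while common interactions stayed between 78.7% and 91.3%. Spans fell along with the share, from a median of 419 kb to 7 kb. Limited to spans of 100 kb or more, CTCF-only interactions with 25 to 49 contacts were 47.7% (40.3 to 55.1) convergent, against 84.8% (82.8 to 86.6) of common ones. RAD21-only interactions went from 75.7% of 416 with fewer than 10 contacts to 56 of 140 (interval 32.3% to 48.3%) with 15 to 24, while their median span fell from 251.5 to 19 kb. At 100 kb or more the shares were 76.4% (71.6 to 80.6) of 343 with fewer than 10 contacts, 62.8% (55.4 to 69.7) of 172 with 10 to 14, and 11 of 16 (interval 44.4% to 85.8%) with 15 to 24. CTCF-only interactions between 2 bins that were both RAD21-list anchors were 45.3% (43.8 to 46.8) convergent, and 2045 of the 4088 were tandem, and those with no RAD21-list anchor 73.7% (69.9 to 77.1) convergent (n = 562).

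**Figure D4:**
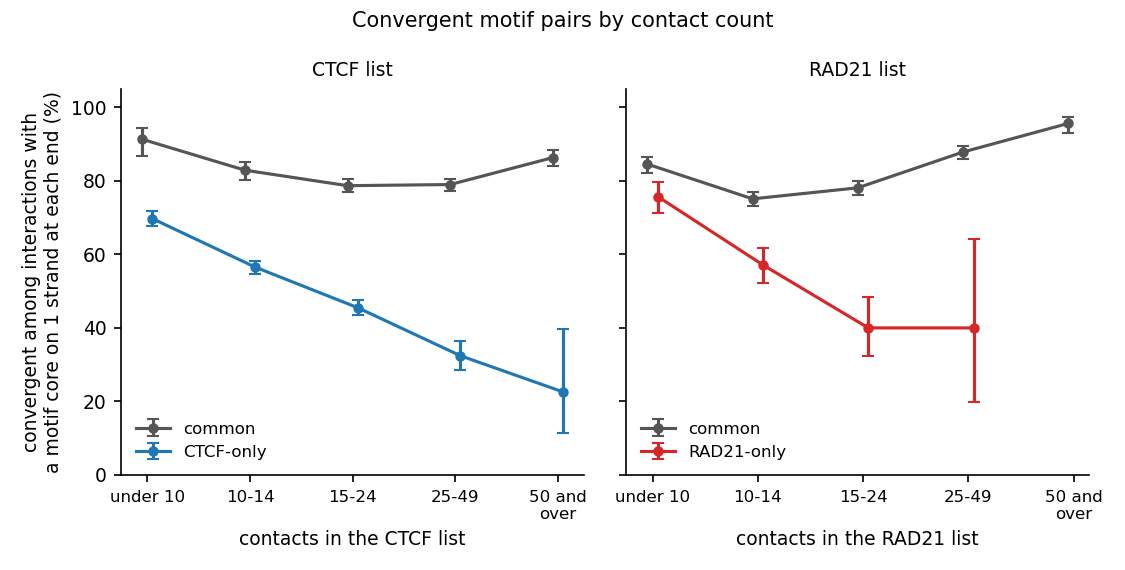
Share of convergent pairs (vertical axis, percent) among interactions with the motif core on 1 strand at each end, by contacts in the CTCF list (left) and the RAD21 list (right). Points are shares with 95% Wilson intervals. CTCF-only interactions go from 69.7% to 22.6%, and common ones stay at 78.7% or above in the CTCF list.

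Contacts of the 17063 common interactions were compared next. The median log2 ratio of RAD21 to CTCF scaled contacts was 0.28 (0.28 to 0.29), and its SD of 0.53 stood beside the 0.51 that counting error alone gives. A common interaction had to pass in both lists, the shallower RAD21 list included. The part of that choice in the SD and in the shift above 0 was not tested, and scaled by the totals over common interactions the median was 0.036. Under the model scaling the median fell from 0.58 under 10 summed scaled contacts (n = 1552) to 0.17 at 20 to 40 (n = 5039). At 80 or more it was 0.38 (n = 295). A difference was called when it was at least 2-fold with an interval that left out 1. By that rule 853 interactions (5.00%) were higher for RAD21 and 179 (1.05%) higher for CTCF. The balance of these calls depended on the scaling: by the totals over common interactions 303 were higher for RAD21 and 443 for CTCF, and by the totals of each list 2861 and 41. Differences in median log2 ratio between groups of common interactions do not depend on it, since a scaling shifts all ratios alike. Shares of called interactions do depend on it, and those of groups given below are under the model scaling.

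A start site at 1 end went with higher RAD21 contacts to a small degree. Interactions with a start site at 1 end had a median log2 ratio of 0.36 (0.32 to 0.37; n = 2847), against 0.27 (0.26 to 0.28; n = 13948) for those with none. With a start site at 1 end or more, the ratio was higher than with none on 18 of 20 chromosomes. Under the model scaling 7.80% of those with a start site at 1 end and 4.36% of those with none were called higher for RAD21. An H3K27ac anchor at 1 end or more moved the median by -0.02 (-0.05 to -0.0023), and the ratio was higher with it on 4 of 20 chromosomes. Within spans of 50 to 300 kb the move was -0.029 (-0.043 to 0.017), an interval that holds 0. The 268 interactions that joined 2 start sites had a median of 0.29 (0.20 to 0.40), an interval that holds the median of those with none. Of these 268, 23 (8.58%) were called higher for RAD21 and 15 (5.60%) higher for CTCF, against backgrounds of 5.00% and 1.05%. These pairs were short, with a median span of 70 kb. Under 50 kb, 4 of 100 pairs of 2 start sites were called higher for RAD21 and 9 higher for CTCF, against 4.11% and 2.08% of 1872 pairs with no start site. Convergent pairs had a median of 0.32 (0.29 to 0.32; n = 5196), tandem pairs 0.12 (0.08 to 0.17; n = 1170) and divergent pairs -0.13 (-0.36 to 0.20; n = 45). The median spans of convergent and tandem pairs were 167 and 117 kb.

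The authors' expected contacts, which take span and bin coverage into account, gave another picture by span. Observed over expected contacts had medians of 6.31 for CTCF and 5.99 for RAD21, and the median log2 difference was -0.0052 (-0.014 to 0.0041). That balance was the sum of opposite differences. At 10 to 25 kb the difference was 0.49 (0.45 to 0.53) and at 800 kb or more it was -0.46 (-0.55 to -0.35). The ratio of scaled contacts had another course, from -0.17 (-0.25 to -0.10) at 5 to 10 kb to 0.32 (0.28 to 0.32) at 50 to 100 kb and 0.36 (0.24 to 0.49) at 800 kb or more. Under the model scaling both measures were above 0 from 10 to 100 kb, with a scaled contact ratio of 0.11 (0.07 to 0.17) at 10 to 25 kb. At 5 to 10 kb and from 100 kb up their medians had opposite signs under that scaling. The sign of the scaled ratio in a span class depends on the scaling. Over all common interactions its median was 0.28 by model contacts, 0.036 by common totals and 0.64 by list totals. The contrast of convergent and tandem pairs was not seen in observed over expected contacts, with differences of 0.0053 (-0.012 to 0.026) and -0.00043 (-0.030 to 0.036). For H3K27ac the measures differed in direction: the observed over expected difference was -0.06 (-0.07 to -0.05) with an H3K27ac anchor at neither end, and 0.11 (0.09 to 0.13) with one at both, at median spans of 173 and 76 kb.

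**Figure D5:**
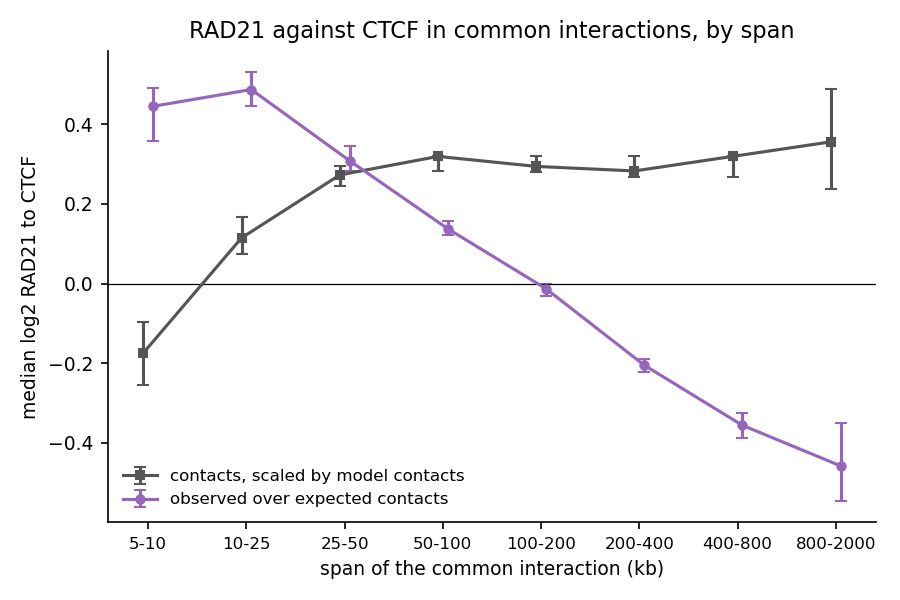
Median log2 RAD21 to CTCF (vertical axis) of common interactions by span (horizontal axis, kb), for contacts scaled by model contacts and for observed over expected contacts. Bars are 95% intervals of the median. Observed over expected crosses 0 at 100 to 200 kb, from 0.49 at 10 to 25 kb to -0.46 at 800 kb or more.

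Anchors had more partners in the longer CTCF list. The mean number of partners at shared anchor bins was 4.25 for CTCF and 2.38 for RAD21, a difference of -1.88 that was -0.12 (-0.14 to -0.09) with the CTCF list cut to the length of the RAD21 list. Across the 17849 shared bins the numbers of partners had a Spearman rho of 0.70, a description of bins that share libraries and coverage. RAD21 had more partners than CTCF at 5.84% of them. CTCF-only and RAD21-only bins had a mean of 1.44 and 1.21 partners.

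The bins with the most partners were shared. For CTCF, the first was the intergenic bin chr1:135753001-135754000, with 40 CTCF and 13 RAD21 partners and cores on both strands. It had 24 CTCF partners to the left and 16 to the right, against 3 and 10 for RAD21. The second, in an exon of Acbd4 (chr11:103102001-103103000), had 39 CTCF and 15 RAD21 partners. Its core lay on the plus strand and 14 of the 15 RAD21 partners lay to the right, against 25 of 39 for CTCF. The third, in an intron of the lincRNA Gm12756 (chr7:34672001-34673000), also had 39 CTCF partners, with cores on the minus strand. There 10 of 11 RAD21 partners and 31 of 39 CTCF partners lay to the left.

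For RAD21, the first was in an intron of Ckm, the gene for muscle creatine kinase (chr7:19405001-19406000), with 27 RAD21 and 31 CTCF partners. The core there lay on the plus strand, and all 27 RAD21 and 30 of 31 CTCF partners lay to the right, at 10 to 467 kb for RAD21. The second was the intergenic bin chr2:166564001-166565000, with 24 RAD21 and 23 CTCF partners, 2 cores on the minus strand, and 23 and 22 of the partners to the left. Both lists had their strongest contact there with a bin in an exon of Sulf2 at 479 kb, with 97 RAD21 and 117 CTCF contacts. The third was in an intron of 1700001O22Rik (chr2:30794001-30795000), with 23 RAD21 and 24 CTCF partners. Its core lay on the plus strand, yet 20 RAD21 and 18 CTCF partners lay to the left, which is the exception among these bins.

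The common interactions with the most contacts were strong in both lists. The first joined the intergenic bins chr15:101988001-101989000 and chr15:102065001-102066000, 77 kb apart, with 433 CTCF and 386 RAD21 contacts. That is 152 and 254 scaled contacts, a log2 ratio of 0.74 (0.54 to 0.94). The second joined an intron of Morn1 (chr4:155095001-155096000) with the start site of Faap20 (chr4:155249001-155250000), a gene of the Fanconi anaemia core complex, 154 kb away. It had 402 CTCF and 348 RAD21 contacts, a log2 ratio of 0.70 (0.48 to 0.91). The third lay on chromosome 17 between bins 5 kb apart at 39843001 and 39848001, which overlap the lincRNA Gm26917 and an annotated rRNA. It had 470 CTCF and 256 RAD21 contacts, yet only 1.65 and 4.94 times the expected number, and how its reads divide among copies of the ribosomal sequence is uncertain.

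The highest RAD21 to CTCF ratios were at modest counts. Inside Tmem163 (chr1:127500001-127501000 with chr1:127677001-127678000), 177 kb apart, there were 26 RAD21 and 9 CTCF contacts, a log2 ratio of 2.43 (1.30 to 3.71). Between the intron of Fgfrl1, a receptor of the FGF receptor family without a kinase domain, and an intergenic bin 35 kb away there were 37 RAD21 and 13 CTCF contacts (2.41; 1.47 to 3.45). Between introns of Ksr2, a scaffold of the MAP kinase pathway, and Nos1, neuronal nitric oxide synthase, 319 kb apart, there were 21 and 8 (2.30; 1.06 to 3.68). The latter pairs had convergent cores, printed above.

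Among the lowest ratios were pairs with more contacts. The tandem pair in introns of Gm20388, 9 kb apart, had 270 CTCF and 21 RAD21 contacts, a log2 ratio of -2.78 (-3.50 to -2.14). Another joined a bin in pseudogenes (chr1:85277001-85278000) with an intron of Sp110 (chr1:85593001-85594000), 316 kb apart, with 55 CTCF and 6 RAD21 contacts (-2.29; -3.80 to -1.08). No core was found at either end, and reads of the pseudogene copies are uncertain.

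Among RAD21-only interactions the one with the most contacts lay far from any CTCF interaction. It joined the start site of Tbl1xr1 (chr3:22076001-22077000), a subunit of nuclear receptor corepressor complexes, with an intergenic bin 140 kb away (chr3:21936001-21937000). It had 95 RAD21 contacts, 24.6 times the expected 3.86, and H3K27ac anchors at both ends. No core was found at either end, and the nearest CTCF-list anchors were 1427 and 1567 kb away. The second (chr2:27552001-27553000 with chr2:27765001-27766000) had 92 contacts over 213 kb, and the third (chr17:45478001-45479000 with chr17:45552001-45553000) had 90 over 74 kb. In both, 1 end was a CTCF-list anchor with an inward core, printed above, and the other an intergenic bin with an H3K27ac anchor and no core. At the chromosome 17 pair a CTCF-listed pair lay 3 kb away, and at the chromosome 2 pair 11 kb away.

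The CTCF-only interactions with the most contacts were short. The first (chr4:127008001-127009000 with chr4:127015001-127016000) had 170 contacts over 7 kb, 38.9 times the expected number, in intergenic bins that were 62.8% and 68.6% soft-masked. The second had 138 contacts between the antisense gene Snhg7os (chr2:26640001-26641000) and an intergenic bin 7 kb away, 2.55 times the expected number. The third joined the start site of Chd8 (chr14:52257001-52258000), a chromatin remodeller known to bind CTCF, with the start sites of Tox4 and Rab2b (chr14:52279001-52280000) 22 kb away. It had 132 contacts, 7.38 times the expected number. In the latter pairs all 4 bins were also RAD21-list anchors, so RAD21 was listed at the bins but not for these pairs. Coverage at the Tox4 and Rab2b bin was 9305 for CTCF and 683 for RAD21.

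List-specific start site anchors with the most contacts were also examined. For RAD21 the first was Tbl1xr1, with 3 partners and 123 contacts. The next was Pcdhgb7 on chromosome 18, of the clustered protocadherins, with 4 partners, all to the right at 101 to 132 kb, and 59 contacts, 4 kb from a CTCF-list anchor. Prr14 (chr7:127471001-127472000), whose protein tethers heterochromatin to the nuclear lamina, had 5 partners and 57 contacts. For CTCF the first was Vps36 (chr8:22192001-22193000), of the ESCRT-II complex, with 11 partners and 188 contacts. Kifc1 (chr17:33890001-33891000), a kinesin gene, had 8 partners and 169 contacts, all to the right within 50 kb although its core lay on the minus strand. Snrpd1, of the spliceosome core, had 3 partners and 139 contacts, 94 of them with the start site of the cohesin acetyltransferase gene Esco1 at 7 kb, which is 2.43 times the 38.8 expected.

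Start site bins of chosen gene lists were set beside all 21840 protein-coding genes, of which 10.7% had a common anchor at a start site, 12.1% a CTCF-only and 4.56% a RAD21-only one. For listed genes the start sites of all annotated transcripts counted, for the background those of protein-coding transcripts only. The imprinted list also holds noncoding genes such as Meg3. Of 15 genes for cohesin and its regulators, 6 had common anchors (Ctcf, Smc3, Stag1, Stag2, Wapl and Pds5b), 1 a CTCF-only anchor (Esco1) and 8 none. Stag1, a cohesin subunit gene, had 10 CTCF and 8 RAD21 interactions, with 68.0 and 78.4 scaled contacts. Both lists had its strongest contact with the start site of Nck1 at 97 kb. Ctcf itself had 5 CTCF and 2 RAD21 interactions, with 37.0 and 23.1 scaled contacts.

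Of 28 pluripotency genes, 5 had common anchors, 4 CTCF-only, 2 RAD21-only and 17 none, shares that with so few genes are not set apart from the background. Tbx3, a T-box regulator of naive stem cells, had 5 CTCF interactions with 82 contacts (28.9 scaled) and 9 RAD21 interactions with 130 contacts (85.7 scaled). Klf5 had 1 CTCF interaction with 12 contacts (4.23 scaled) and 2 RAD21 interactions with 27 contacts (17.8 scaled). Its pair in both lists, 156 kb apart, had 12 CTCF and 16 RAD21 contacts. Pou5f1, which encodes OCT4, had 1 interaction in each list, with the same intergenic bin 22 kb away, with 30 and 15 contacts, or 10.6 and 9.88 scaled contacts. Nanog had 3 CTCF and 2 RAD21 interactions, with 26.1 and 23.1 scaled contacts. RAD21-only anchors were at Tdgf1, the gene of a Nodal coreceptor, with 12 contacts to an intron of Lrrc2 at 8 kb, and at Mycn, with 10 contacts at 153 kb. CTCF-only anchors were at Klf2, Esrrb, Zfp42 and Tet2, with 7 to 27 contacts. None of the 4 had a core in a start site bin.

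No anchor of either list was at a start site of 72.5% of all protein-coding genes, and imprinted and lineage genes had shares near that. Of 28 imprinted genes 3 had common anchors, Kcnq1, Gnas and Inpp5f, 4 had CTCF-only anchors, Dlk1, Zim1, Nnat and Zrsr1, and 21 none. Dlk1 contacted an exon of the lincRNA gene Meg3 at 90 kb with 10 CTCF contacts. Of 35 lineage genes 3 had common, 5 CTCF-only, 2 RAD21-only (Sox7 and Sox1) and 25 no anchors. Hoxc10 had the most, with 22 CTCF and 10 RAD21 interactions and 249 and 181 scaled contacts. Tfap2c, a regulator of germ line and trophoblast, had 15 and 10 interactions, with 141 and 154 scaled contacts.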

How the data were processed

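Interaction lists for CTCF and RAD21, 1 per group and pooled over the replicates per the labels, were used as deposited, with the untreated H3K27ac list (2 kb bins) for annotation. Contact counts and bin coverage were deposited as unnormalised integers. A row further holds, per the file headers, peak flags, the contacts a model with coverage bias expects (a signal value), the model probability as a fraction, a p-value and a q-value. All q-values were under 0.05. The submitters' processing notes name mm10, Trim Galore, BWA, MACS2 and deepTools, and the interaction caller's settings are not given in the sources used here.

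Model contacts are the expected count divided by its probability. Contact ratios (a fold of scaled counts) have exact binomial intervals, shares have 95% Wilson intervals, and a call needed a 2-fold ratio with an interval that left out 1. No test across replicates was possible, and no p-value was computed. The motif core was searched in GRCm38.p6, start sites came from the GENCODE M21 basic annotation, and the scan and the ratio call were tested on simulated data. Python 3.11.15, numpy 2.4.6, pandas 2.3.3, scipy 1.17.1 and matplotlib 3.10.9 were used.

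The named interactions were the 3 common ones with the most scaled contacts, the 3 highest and 3 lowest called ratios with 20 or more contacts over both lists, the 3 of each list with the most contacts and no pair of the other list within 1 bin, the 3 bins with the most partners per list, and the 3 start site anchors with the most contacts and no anchor of the other list within 1 bin. Any within 2 bins of one already named was left out. A named interaction with a low ratio and a listed gene are not reported here. Members, gene lists and the motif were chosen with earlier results of these data known. The alternatives covered matching within 1 bin, the q threshold, a minimum of 10 contacts, list length, scaling, the start site window, H3K27ac peaks, motif mismatches and span. Bins of like coverage and interactions of 10 to 14 contacts were added after seeing the data.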

Additional observations from a re-analysis of the deposited data

How the results depend on the processing

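No paired analysis was possible because each list pools its replicates, and leaving out each replicate was not run for the same reason. Across 19 results, 63 combinations of a result and an alternative were run: 23 kept the reported value within its interval (or a count within 1.5 times), 38 moved beyond that with the same sign, 1 moved to the other sign from a value whose interval held 0, and 1 reversed. Where no reason is named, the cause was not tested. Bins matched within 1 bin gave 77.9% of RAD21 and 47.1% of CTCF interactions in the other list. At a q of 0.01 these were 75.4% and 36.1%, at a minimum of 10 contacts 75.8% for RAD21, and at equal list length 57.5% for both. The median span of CTCF-only minus common interactions (19 kb) was 26 kb within 1 bin, 23 kb at q of 0.01, 11 kb at 10 contacts and 23 kb at equal length. That of RAD21-only minus common ones (-52 kb) was -47 kb at q of 0.01 and -45 kb at equal length. Scaling by common totals gave a median log2 ratio of 0.036 with 303 interactions higher for RAD21 and 443 for CTCF, and scaling by list totals 0.64 with 2861 and 41. Which protein had more called interactions thus depended on the scaling. The log2 difference in observed over expected contacts (-0.01) was 0.048 at 10 contacts, the other sign, and the partner difference -0.12 at equal length.

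Relative to common anchors, in points, start sites at CTCF-only anchors (3.93) came to 8.55 within 1 bin and 8.45 with a wider start site window. At like coverage the difference reversed to -1.90 (CTCF coverage of 500 to 1000, while CTCF-only bins were higher in the 3 classes above it). Alternatives at like coverage, and those for convergent pairs at 10 to 14 contacts, were added after seeing the data. H3K27ac at CTCF-only anchors (-4.06) came to -2.76 at equal length and -2.21 with peaks only. The core there (-26.6) came to -11.2 within 1 bin, -12.7 without mismatch and -5.72 at like coverage, and convergent pairs (-26.0) to -23.2 within 1 bin. At RAD21-only anchors start sites (13.1) came to 16.7 with the wider window and 16.2 at like coverage. H3K27ac (21.1) came to 18.97 within 1 bin, 14.8 at equal length and 29.7 at like coverage. The core (-41.3) came to -38.5 within 1 bin, -34.9 at equal length, -16.4 without mismatch and -31.8 at like coverage, and convergent pairs (-18.7) to -15.2 without mismatch. Matches without mismatch made up 32.6% of core matches at common, 20.6% at CTCF-only and 16.9% at RAD21-only anchors. Points for the core without mismatch thus rest on lower shares. Absence of a pair from a list went with few contacts. At under 5 scaled contacts 14.4% of CTCF interactions were in the RAD21 list and 55.8% of RAD21 interactions in the CTCF list. The part of depth in this was not tested.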
